A study of Mus musculus with 5 samples.

Results

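The genes described here encode the enzymes and carriers that bring glucose into the cell, break it down to pyruvate and lactate, pass pyruvate to the mitochondrion and run the pentose phosphate pathway. They were taken from a list of 39 genes by name. The rule used no measured value, but the list was drawn up with earlier results of these data known. All 39 were found among the 19764 genes named on the arrays, with 88 probe sets, and each is shown by the 1 probe set whose mean over the 5 arrays was highest. A gene's mean was compared with the median over all genes, 5.28 on the log2 scale, and 32 of the 39 stood at or above it. The 7 below it were Hk3, Pfkfb1, Pfkfb2, Aldoc, Eno2, Slc16a3 and Pdk4.

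The study comprised 5 Affymetrix arrays of thymic cells from male CD-1 mice aged 4 to 6 weeks, an outbred stock, each array holding the RNA of a pool from 3 animals. The groups were mice killed 4 h after 0.2 mg dexamethasone was injected into the peritoneum, mice given phosphate-buffered saline (PBS) in the same way and for the same time, suspensions kept in culture for 4 h with dexamethasone (10e-7 M as labelled), suspensions kept in culture for 4 h with 0.1% ethanol, and untreated mice. Dexamethasone is a synthetic glucocorticoid, and the question was how treated samples differed from their vehicle controls. With a single array in every group, differences between arrays could not be set against replicates, and 5 arrays are few for precise values. Values are deposited log2 levels or differences of log2 levels (written "log2") unless a fold is stated, and a level of 1 gene cannot be set against that of another.

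Glycolysis converts glucose to pyruvate in the cytosol. Pyruvate is then either reduced to lactate, which leaves through monocarboxylate transporters, or carried into the mitochondrion and oxidised by the pyruvate dehydrogenase complex, which pyruvate dehydrogenase kinases switch off. The pentose phosphate pathway branches from glucose 6-phosphate and yields NADPH and ribose 5-phosphate, which dividing thymocytes use for nucleotide synthesis. Glucocorticoids are known to restrict glucose use in many tissues, and Pdk4 is a textbook glucocorticoid-responsive gene in muscle and liver.

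The results turned on Slc16a1, Pdk4, Ldhb and, in culture, on a run of glycolytic genes of which Pgam1 is one, and their promoter windows are shown for that reason. Each window runs from 250 bases before to 50 bases after the annotated start, 5′ to 3′ on the strand of the gene, from RefSeq (GRCm38.p6). They are Slc16a1 at chr3:104638414-104638713, plus strand, Pdk4 at chr6:5496229-5496528, minus strand, Ldhb at chr6:142507908-142508207, minus strand and Pgam1 at chr19:41911621-41911920, plus strand. Capitals mark every match to the motifs searched on both strands, which were the E-box CACGTG, the hypoxia response core ACGTG, which also lies within each E-box, and AGAACA, a part of the element bound by the glucocorticoid receptor.
Slc16a1: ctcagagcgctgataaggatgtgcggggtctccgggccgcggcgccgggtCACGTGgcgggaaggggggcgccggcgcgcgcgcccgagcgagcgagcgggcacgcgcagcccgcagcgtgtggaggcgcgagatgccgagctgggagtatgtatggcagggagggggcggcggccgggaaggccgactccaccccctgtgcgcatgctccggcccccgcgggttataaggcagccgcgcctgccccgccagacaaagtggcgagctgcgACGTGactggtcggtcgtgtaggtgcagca
Pdk4: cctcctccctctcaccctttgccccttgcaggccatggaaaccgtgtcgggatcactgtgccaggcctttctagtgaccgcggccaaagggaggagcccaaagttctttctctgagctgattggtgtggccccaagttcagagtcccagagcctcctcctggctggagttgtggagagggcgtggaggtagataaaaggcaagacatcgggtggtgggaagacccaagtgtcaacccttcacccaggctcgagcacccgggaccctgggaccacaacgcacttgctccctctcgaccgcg
Ldhb: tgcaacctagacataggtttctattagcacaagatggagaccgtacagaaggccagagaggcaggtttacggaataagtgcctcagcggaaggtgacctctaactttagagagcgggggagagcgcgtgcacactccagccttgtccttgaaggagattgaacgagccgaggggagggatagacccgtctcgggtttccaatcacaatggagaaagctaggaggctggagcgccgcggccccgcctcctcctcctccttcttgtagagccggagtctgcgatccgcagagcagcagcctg
Pgam1: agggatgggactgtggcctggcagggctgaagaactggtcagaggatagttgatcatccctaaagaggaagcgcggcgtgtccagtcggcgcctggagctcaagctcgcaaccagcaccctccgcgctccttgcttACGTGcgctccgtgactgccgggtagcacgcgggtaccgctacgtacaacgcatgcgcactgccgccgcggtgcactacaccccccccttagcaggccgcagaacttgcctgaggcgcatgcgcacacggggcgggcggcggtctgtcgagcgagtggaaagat
The Slc16a1 window held an E-box, the site bound by Myc and related factors, beginning at position -200 from the start, and a separate hypoxia response core after the start. The Pgam1 window held 1 hypoxia response core, and the windows of Pdk4 and Ldhb held none of the 3 motifs. Pgam1 does not stand for the whole run. Windows of Aldoa, Hk2 and Pfkfb3, also of that run, held the core, and those of Tpi1 and Eno1 did not. Of the 39 genes, 38 had at least 1 window in the RefSeq table, 59 windows in all. The E-box was in 10.2% of these windows and in 7.15% of all 32851 windows, the hypoxia response core in 40.7% against 19.6%, and the receptor motif in 18.6% against 19.0%. Windows of 1 gene can overlap, and a match is a description of letters only.

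**Figure D1:**
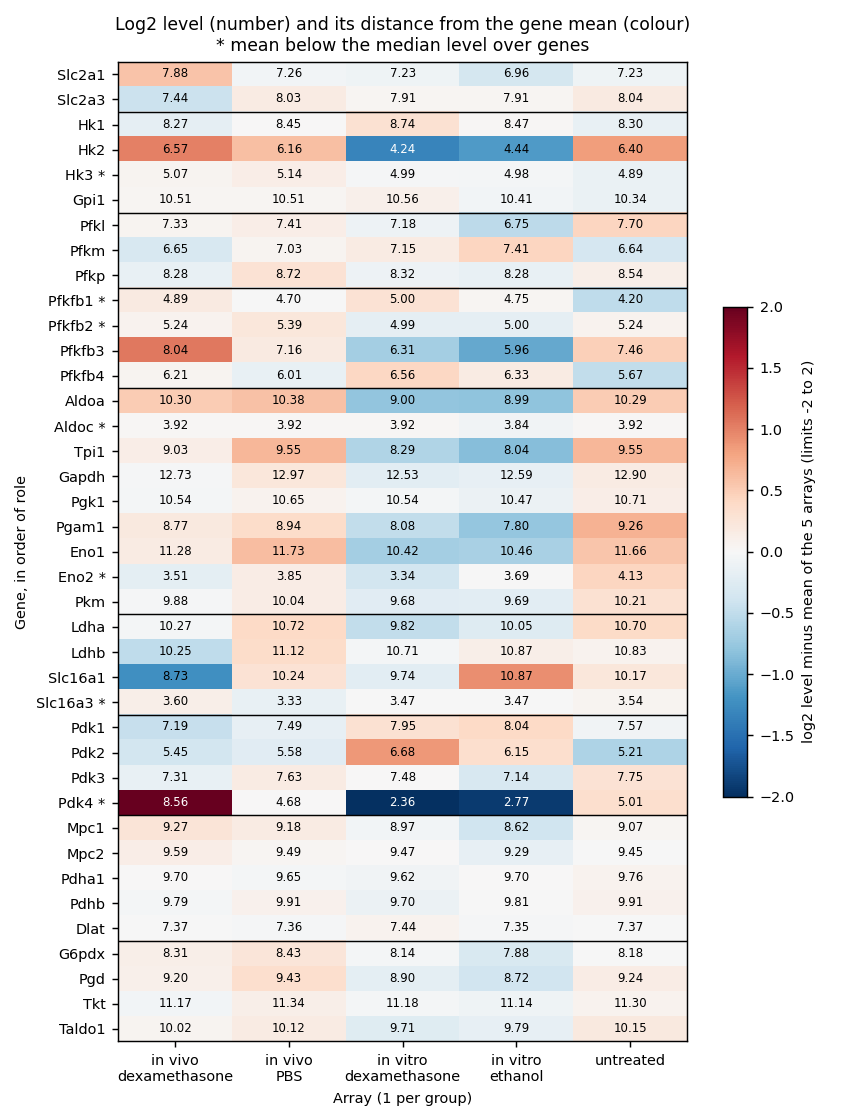
Deposited log2 level (number in each cell) of the 39 genes on the 5 arrays, with the colour giving the distance from the gene's own mean, limited to 2 in either direction. Pdk4 stood at 8.56 with dexamethasone in vivo and at 2.36 and 2.77 on the cultured arrays, and Slc16a1 was lower on each dexamethasone array than on its vehicle array.

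Slc16a1 and Ldhb, both of lactate handling, had the lowest differences of the 39 genes with dexamethasone in vivo. Slc16a1 encodes MCT1, a transporter that carries lactate and pyruvate across the plasma membrane. Its level was 8.73 with dexamethasone and 10.24 with PBS in vivo, 9.74 with dexamethasone and 10.87 with ethanol in culture, and 10.17 in untreated cells. It was thus 2.87-fold lower in vivo and 2.19-fold lower in vitro. In culture the ethanol array stood above the untreated one by 0.70 log2, so that the cultured dexamethasone array lay only 0.43 log2 below untreated cells. In vivo the PBS array stood within 0.07 log2 of the untreated array.

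Whether both settings shared a difference was tested in limma, with terms for the setting and for dexamethasone, on the 4 treated and vehicle arrays and 9882 genes. Slc16a1 fell by 1.33 log2 (SE 0.146, limma adjusted p = 0.000869), and it was lower with dexamethasone in both settings. It was the only one of the 32 tested genes that passed, where 2.34% of all genes tested rose and 1.46% fell. The model has 1 residual degree of freedom, the difference between both responses, so its p does not measure the spread between pools of a group. The call was lost when genes of lower level were also tested (limma adjusted p = 0.711 without a level filter, 0.2 with a filter at the lower quartile), without the block for setting (adjusted p = 1) and with the median over probe sets (adjusted p = 0.164). The second probe set of Slc16a1 had levels of 2.86 to 3.29, near the lower quartile of the array values at 2.97, and differed by -0.13 log2 in vivo and -0.24 log2 in vitro.

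Ldha and Ldhb encode the muscle-type and heart-type subunits of lactate dehydrogenase. Ldhb stood at 10.25 with dexamethasone and 11.12 with PBS in vivo, 10.71 with dexamethasone and 10.87 with ethanol in culture, and 10.83 untreated. All 5 of its probe sets were lower with dexamethasone in vivo, by -1.11 to -0.85 log2, and lower in vitro, by -0.41 to -0.16 log2. Over both settings the difference of Ldhb was -0.52 log2 (SE 0.160, limma adjusted p = 0.144), which did not pass. Under 2 other scalings of the arrays, with array medians centred and with quantile normalization repeated, it passed. Those scalings called 688 and 736 of all 9882 genes, where the main fit called 375. Ldha was at -0.45 log2 in vivo and -0.23 log2 in vitro (limma adjusted p = 0.278). Slc16a3, which encodes the lactate exporter MCT4, had levels of 3.33 to 3.60 on all arrays, below the median of every array.

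Pdk4 showed the largest difference of the 39 genes in the dexamethasone comparisons, and it stood high on the in vivo dexamethasone array alone. It encodes a pyruvate dehydrogenase kinase that inactivates the complex and spares pyruvate. Its level was 8.56 with dexamethasone and 4.68 with PBS in vivo, 2.36 with dexamethasone and 2.77 with ethanol in culture, and 5.01 untreated. The in vivo dexamethasone array was therefore 14.7-fold above the PBS array. Both cultured levels stood under 2.97, in the lowest range of the arrays, where the difference of -0.40 log2 between them is one of low signals. Because its mean lay below the level filter, Pdk4 was not in the limma test.

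The summed level of adipocyte markers was also higher with dexamethasone in vivo. Of 8 such genes 2 were at least 2-fold higher in vivo, Fabp4 and Cidec. Cidec lay below the level filter, so 1 of the 6 kept genes was, where 2.71% of all kept genes were. The summed linear intensity of the 8 was 9010 with dexamethasone and 5308 with PBS, a ratio of 1.70. It was 105 and 92.3 on the cultured arrays with dexamethasone and ethanol, and 6372 untreated. The same in vivo ratio was 1.25 for erythroid, 1.235 for fibroblast, 1.13 for macrophage and 1.11 for thymic epithelium markers. Double-positive thymocyte, granulocyte and B cell lists had lower sums with dexamethasone than with PBS, and the endothelium ratio was 0.989. Of 8 macrophage genes 1 was at least 2-fold higher in vivo, Mrc1, with 8.57 with dexamethasone and 6.89 with PBS. Of 5 endothelium genes 1 was, Emcn, below the level filter, with 5.51 with dexamethasone and 3.62 with PBS. In each of these 2 lists 0 were at least 2-fold lower. Fabp4, a fatty acid binding protein of fat cells, differed by 1.05 log2 in vivo, and Adipoq, adiponectin, by 0.89 log2. Plin1 had the same level of 3.47 on all 3 arrays of cells that were not cultured. The 5 skeletal muscle markers summed to 176 with dexamethasone and 141 with PBS in vivo, and to 263 in untreated cells. Only 1 of the 5, Acta1, passed the level filter. Mb, below it, had 5.91 with dexamethasone and 4.33 with PBS in vivo, and 6.83 untreated. The part of these cells in the Pdk4 difference was not tested. In bulk samples, fewer cells of a type and less RNA per cell cannot be told apart.

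The other kinases stayed under 2-fold with dexamethasone. Pdk1 stood at 7.19 with dexamethasone and 7.49 with PBS in vivo, 7.95 with dexamethasone and 8.04 with ethanol in culture, and 7.57 untreated, and its 3 probe sets ran from -0.29 to 0.28 log2 in vivo. Pdk2 was at -0.13 log2 in vivo and 0.53 log2 in vitro, and Pdk3 at -0.32 log2 and 0.33 log2. The signs thus opposed each other between settings for both, with no test of the difference.

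**Figure D2:**
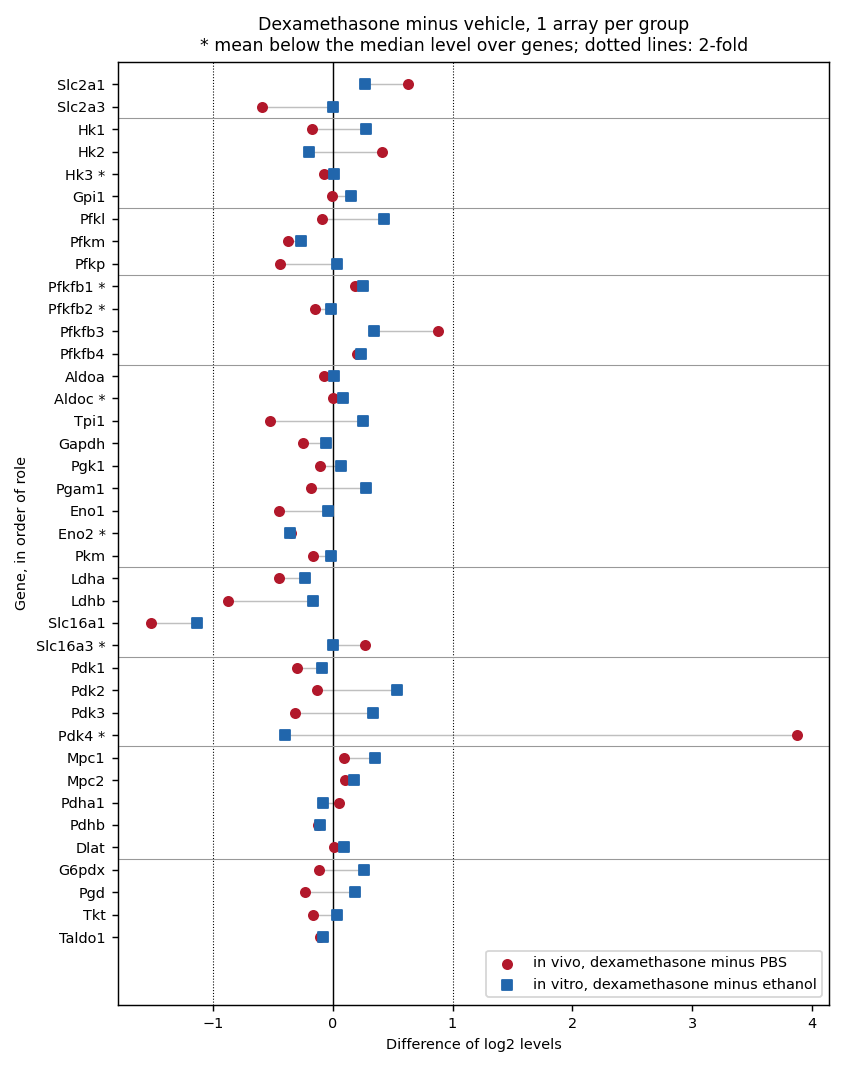
Difference of log2 levels, dexamethasone minus vehicle, for the 39 genes in order of their role, in vivo (circles) and in vitro (squares), with dotted lines at 2-fold. Slc16a1 lies beyond 2-fold on the lower side in both settings, and Pdk4 beyond it on the higher side in vivo, at 3.87.

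Among the genes kept for comparison, 0 of 32 were at least 2-fold higher with dexamethasone in vivo, where 2.71% of all 9882 kept genes were, and 1 of 32, Slc16a1, was at least 2-fold lower, where 1.48% were. In vitro the counts were 0 of 32, where 1.53% of all genes were higher, and 1 of 32, again Slc16a1, where 0.86% were lower. These shares lie near those of all genes. The median difference of the 32 genes was -0.15 log2 in vivo, beside -0.07 log2 over all kept genes, and 0.06 log2 in vitro, beside 0.04 log2. In vivo 24 of the 32 were lower and 8 higher, where 5788 of all 9882 kept genes were lower and 3834 higher.

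Transport and phosphorylation of glucose differed by gene. Slc2a1, the GLUT1 glucose transporter, had 7.88 with dexamethasone and 7.26 with PBS in vivo, 7.23 with dexamethasone and 6.96 with ethanol in culture, and 7.23 untreated. All 3 of its probe sets were higher in vivo, by 0.57 to 0.79 log2, and in vitro, by 0.13 to 0.28 log2. Over both settings its difference was 0.45 log2 and did not pass (SE 0.196, limma adjusted p = 0.368). Slc2a3, the high-affinity transporter GLUT3, ran the other way in vivo. It had 7.44 with dexamethasone and 8.03 with PBS in vivo, 7.91 on both cultured arrays, and 8.04 untreated. All 4 of its probe sets were lower in vivo, by -0.65 to -0.04 log2.

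Hexokinases trap glucose as glucose 6-phosphate, which Gpi1 then converts to fructose 6-phosphate. Hk1 was at -0.17 log2 in vivo and 0.28 log2 in vitro, and Hk2 at 0.41 log2 and -0.20 log2. Gpi1 stood at 10.51 with dexamethasone and 10.51 with PBS in vivo, 10.56 with dexamethasone and 10.41 with ethanol in culture, and 10.34 untreated. Other probe sets of Gpi1 were higher in vivo, by up to 0.66 log2. Hk3, a hexokinase of myeloid cells, ranged over 4.89 to 5.14 on the 5 arrays.

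Phosphofructokinase makes the committed step, and the PFKFB enzymes set the level of its activator fructose 2,6-bisphosphate. In vivo Pfkp was at -0.44 log2, Pfkm at -0.37 log2 and Pfkl at -0.09 log2. A second Pfkl probe set of similar level was at 0.20 log2, so Pfkl has no settled direction, and against the untreated array Pfkm was at 0.01 log2. In vitro Pfkp was at 0.04 log2, Pfkm at -0.26 log2 and Pfkl at 0.43 log2. Pfkp stood at 8.28 with dexamethasone and 8.72 with PBS in vivo, 8.32 with dexamethasone and 8.28 with ethanol in culture, and 8.54 untreated. Pfkfb3, whose product strongly favours synthesis of the activator, had 8.04 with dexamethasone and 7.16 with PBS in vivo, 6.31 with dexamethasone and 5.96 with ethanol in culture, and 7.46 untreated. It was higher by 1.84-fold in vivo and by 1.27-fold in culture, and both of its probe sets were higher in each setting. The common difference of Pfkfb3 was 0.61 log2 (SE 0.215, limma adjusted p = 0.218). Pfkfb4 was at 0.20 log2 in vivo and 0.24 log2 in vitro. Pfkfb1 and Pfkfb2 were below the level filter, at 0.19 log2 and -0.15 log2 in vivo.

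From aldolase to pyruvate kinase, 8 of 9 genes were lower with dexamethasone in vivo and Aldoc had the same level on both arrays. The median was -0.18 log2, and 5788 of the 9882 kept genes were lower. The 9 include Aldoc and Eno2, which lay below the level filter and so are not like the kept genes. Tpi1, triosephosphate isomerase, was at -0.52 log2 and Eno1, the enolase of most tissues, at -0.45 log2. All 3 probe sets of Tpi1 and all 5 of Eno1 were lower. In vitro Tpi1 was at 0.25 log2 and Eno1 at -0.03 log2. Gapdh, the dehydrogenase often used as a reference gene, had 12.73 with dexamethasone and 12.97 with PBS in vivo, 12.53 with dexamethasone and 12.59 with ethanol in culture, and 12.90 untreated. Pgk1, Pgam1, Aldoa and Eno2 lay between -0.34 log2 and -0.07 log2 in vivo. Aldoc and Eno2, isozymes known from nervous tissue, stood at 3.34 to 4.13 on all arrays.

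The probe sets of Pkm disagreed. Pkm encodes the pyruvate kinase of most tissues. The probe set used here had 9.88 with dexamethasone and 10.04 with PBS in vivo and 9.68 with dexamethasone and 9.69 with ethanol in culture, with 10.21 untreated. A second one, of a type that may take signal from other transcripts, had 8.35 with dexamethasone and 6.54 with PBS in vivo and 7.74 with dexamethasone and 6.76 with ethanol in culture, with 6.41 untreated. With dexamethasone that probe set was higher by 3.49-fold in vivo and by 1.98-fold in culture, and the authors' deposited table of in vivo differences lists it at 1.80 log2. The same deposited table lists Slc16a1 at -1.52 log2, Pdk4 at 3.87 log2 and 1 probe set of Ldhb at -1.11 log2, and no other probe set of the 39 genes. Which of both Pkm probe sets follows the transcript was not tested.

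**Figure D3:**
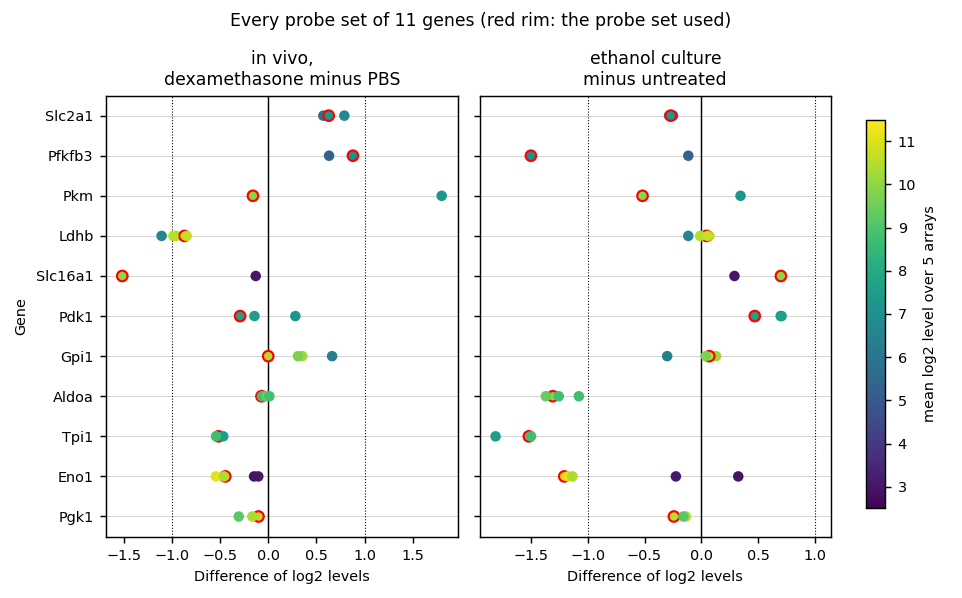
Difference of log2 levels for every probe set of 11 of the genes, with dexamethasone minus PBS in vivo at the left and ethanol culture minus untreated at the right, coloured by mean level, the probe set used having a red rim. Probe sets of Ldhb, Aldoa and Tpi1 lie close together, while those of Pkm lie apart, at -0.16 and 1.80 in vivo.

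Transcripts for the entry and oxidation of pyruvate differed little with dexamethasone in vivo. Mpc1 and Mpc2, the subunits of the mitochondrial pyruvate carrier, were at 0.10 log2 each in vivo and at 0.35 log2 and 0.18 log2 in vitro. Pdhb, a subunit of pyruvate dehydrogenase itself, had 9.79 with dexamethasone and 9.91 with PBS in vivo, 9.70 with dexamethasone and 9.81 with ethanol in culture, and 9.91 untreated. Pdha1, which carries the sites that the kinases phosphorylate, was at 0.05 log2 in vivo and -0.08 log2 in vitro. Dlat, the acetyltransferase, was at 0.01 log2 and 0.09 log2. The carrier and dehydrogenase genes lay between -0.12 and 0.10 log2 in vivo, beside the 3.87 log2 of the kinase gene Pdk4.

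The probe sets used for the 4 pentose phosphate genes stood slightly lower in vivo. G6pdx, the entry dehydrogenase, was at -0.12 log2, Pgd, the second dehydrogenase, at -0.23 log2, Tkt, transketolase, at -0.17 log2 and Taldo1, transaldolase, at -0.11 log2. The direction of G6pdx turned with the median over probe sets (0.14 log2) and against the untreated array (0.13 log2). In vitro G6pdx was at 0.27 log2, Pgd at 0.18 log2, Tkt at 0.04 log2 and Taldo1 at -0.08 log2. Tkt had 11.17 with dexamethasone and 11.34 with PBS in vivo, 11.18 with dexamethasone and 11.14 with ethanol in culture, and 11.30 untreated. None of the 4 reached a 1.5-fold difference with dexamethasone in either setting.

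After 4 h in culture with ethanol, a set of glycolytic genes was lower than in untreated cells, most of them from aldolase to enolase. Aldoa, the main aldolase, had 8.99 in ethanol culture and 10.29 in untreated cells, a 2.47-fold lower level. Tpi1 had 8.04 in ethanol culture and 9.55 in untreated cells, 2.86-fold lower. Pgam1, phosphoglycerate mutase, had 7.80 in ethanol culture and 9.26 in untreated cells, 2.75-fold lower, and Eno1 had 10.46 in ethanol culture and 11.66 in untreated cells, 2.31-fold lower. Hk2, the inducible hexokinase, had 4.44 in ethanol culture and 6.40 in untreated cells, and Pfkfb3 had 5.96 in ethanol culture and 7.46 in untreated cells, which is 3.91-fold and 2.83-fold lower.

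Those 6 genes made up 18.8% of the 32 kept genes, beside 8.07% of all kept genes that were at least 2-fold lower, and 0 of 32 were at least 2-fold higher, beside 3.1%. Hk2 passed the level filter of 5.28 only through the arrays of cells that were not cultured. Its cultured levels, 4.24 with dexamethasone and 4.44 with ethanol, lay below that filter, so its place in the count depends partly on the filter. With the PBS array in place of the untreated one, the count was again 6 of 32. Pdk4, below the level filter, had 2.77 in ethanol culture, in the lowest range of the arrays, and 5.01 in untreated cells. All 4 probe sets of Aldoa and all 3 of Tpi1 were at least 2-fold lower. Of the 5 of Eno1, 3 were, and the other 2 had levels of 2.66 to 3.24. The second probe set of Pfkfb3 was at -0.11 log2.

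The cultured dexamethasone array gave similar levels. It lay 0.01 log2 above the ethanol array for Aldoa, and it had 8.29 for Tpi1, 8.08 for Pgam1, 10.42 for Eno1, 4.24 for Hk2 and 6.31 for Pfkfb3. In vivo, Aldoa had 10.30 with dexamethasone and 10.38 with PBS. Tpi1 had 9.03 with dexamethasone and 9.55 with PBS, Pgam1 8.77 with dexamethasone and 8.94 with PBS, and Eno1 11.28 with dexamethasone and 11.73 with PBS. Hk2 had 6.57 with dexamethasone and 6.16 with PBS. Each of the 6 genes was thus lower on both cultured arrays than on all 3 arrays of cells that were not cultured. This held for 15 of the 32 kept genes, 46.9%, beside 20.2% of all kept genes. Hk2, kept through the arrays of cells that were not cultured, is among the 15. Both cultured arrays lay above the other 3 for 5 of 32, 15.6%, beside 29.9% of all kept genes, and these 5 were Hk1, Pfkm, Pfkfb4, Pdk1 and Pdk2.

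Neighbouring steps of glycolysis stood closer to untreated cells. Gpi1 differed by 0.07 log2 between ethanol culture and untreated cells, Pgk1 by -0.24 log2, Gapdh by -0.31 log2 and Pkm by -0.52 log2. The median from aldolase to pyruvate kinase was -0.52 log2, with 9 of 9 genes lower, where 4587 of the 9882 kept genes were lower. The 9 include Aldoc and Eno2, which lay below the level filter and so are not like the kept genes. The median of all 32 kept genes was -0.26 log2, beside 0.01 log2 over all kept genes. Pfkl was at -0.95 log2, while Pfkm was at 0.76 log2. Pdk2 was at 0.94 log2, Slc16a1 at 0.70 log2 and Pfkfb4 at 0.65 log2. Of the pentose phosphate genes, Pgd was at -0.52 log2, Taldo1 at -0.36 log2, G6pdx at -0.30 log2 and Tkt at -0.16 log2. Mpc1 was at -0.45 log2 and Mpc2 at -0.16 log2, and Pdha1, Pdhb and Dlat lay between -0.10 log2 and -0.02 log2.

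**Figure D4:**
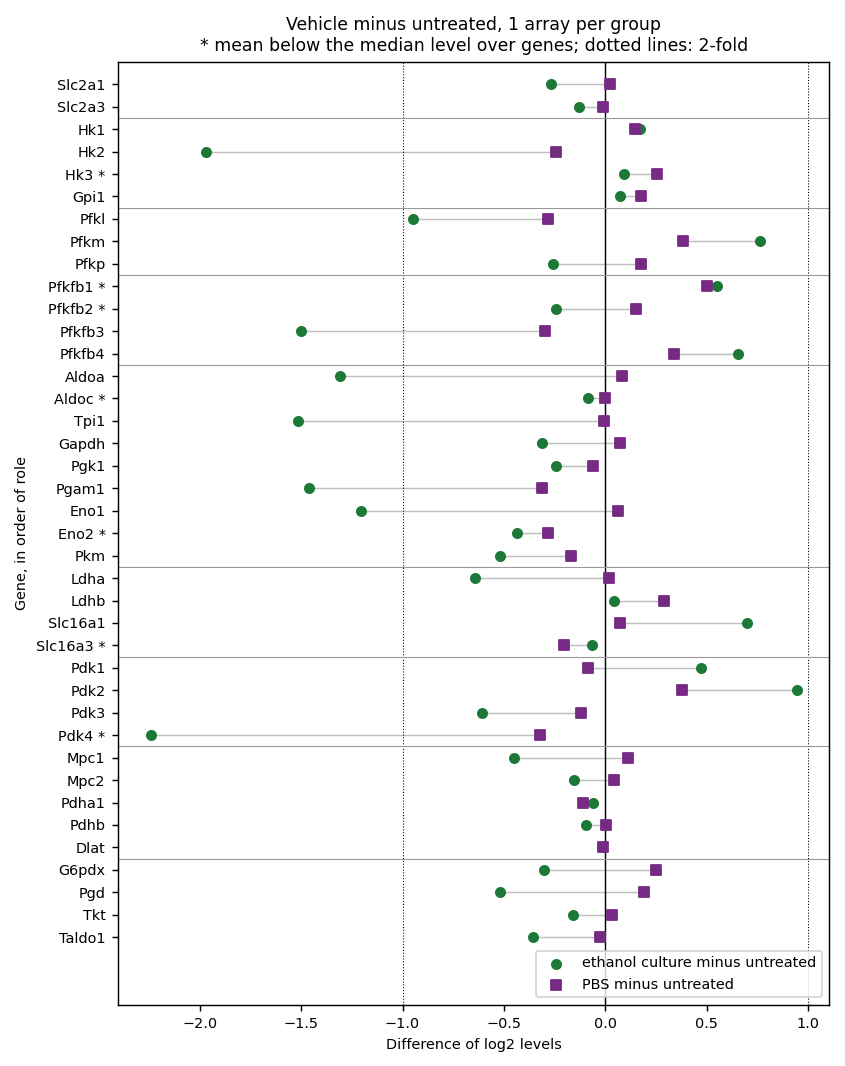
Difference of log2 levels for the 39 genes, ethanol culture minus untreated (circles) and PBS minus untreated (squares), with dotted lines at 2-fold. Hk2, Pfkfb3, Aldoa, Tpi1, Pgam1, Eno1 and Pdk4 lie beyond 2-fold on the lower side in culture, and no gene does between PBS and untreated.

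Marker lists of thymic epithelium, macrophages, fibroblasts and adipocytes were lower in ethanol culture too. Without a level filter, 7.14% of all genes were at least 2-fold lower there. Thymic epithelium markers, 9 of 9 at least 2-fold lower in ethanol culture than in untreated cells, summed to a linear intensity of 1151 in ethanol culture and 14320 in untreated cells. Macrophage markers, 8 of 8 lower, summed to 747 in ethanol culture and 8536 in untreated cells. Fibroblast markers, 7 of 7 lower, summed to 92.1 in ethanol culture and 2086 in untreated cells, and adipocyte markers, 7 of 8 lower, to 92.3 in ethanol culture and 6372 in untreated cells. Double-positive thymocyte markers had 0 of 10 lower and summed to 27880 in ethanol culture and 26460 in untreated cells. Endothelium markers had 1 of 5 lower and summed to 326 in ethanol culture and 312 in untreated cells. Muscle markers had 2 of 5 lower (88.3 against 263) and B cell markers 2 of 4 (224 against 304). Granulocyte markers had 0 of 7 lower (2988 against 3187) and erythroid markers 0 of 5 (8664 against 7293). Some markers stood near the low end of the arrays in ethanol culture, among them Col3a1 at 3.32 and Fabp4 at 2.75. The 3′ minus 5′ difference of the actin control probe sets, a sign of RNA integrity, was 0.78 with dexamethasone and 0.53 with ethanol in culture, against 0.20 to 0.32 on the other arrays. For the Gapdh control probe sets it was 0.10 with dexamethasone and -0.03 with ethanol in culture, against -0.14 to -0.07 on the other arrays. The part of either in the glycolytic difference was not tested.

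**Figure D5:**
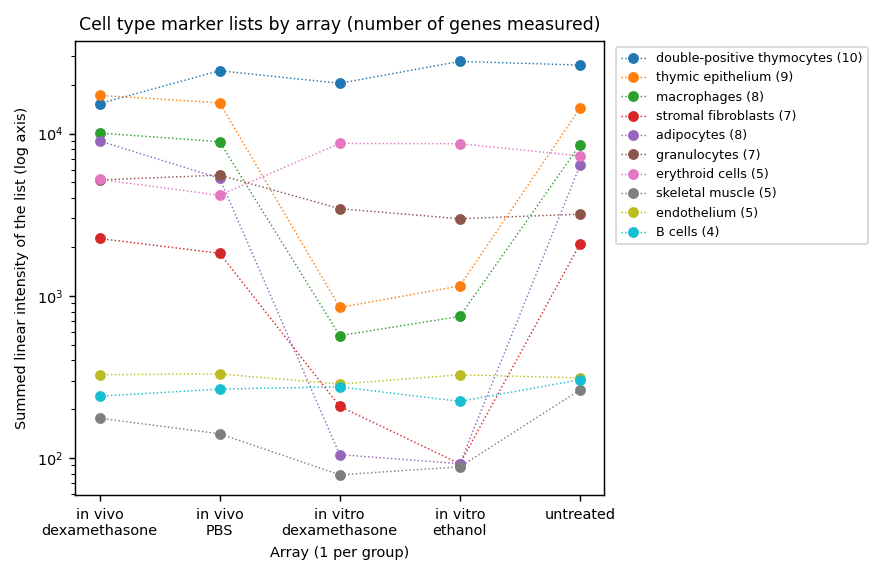
Summed linear intensity (log axis) of marker lists for 10 cell types on each of the 5 arrays, with dotted lines joining the points of a list. Thymic epithelium, macrophage, fibroblast and adipocyte lists are lowest on the cultured arrays, and the double-positive thymocyte list, which carries the labelled tissue's main cell type, is at 15310 or more on every array.

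With dexamethasone the double-positive list itself stood lower, at a summed intensity of 15310 against 24420 with PBS in vivo and 20440 against 27880 with ethanol in vitro. Its 10 measured genes had medians of -0.73 log2 and -0.38 log2, and 5 of 10 fell by the limma test, where 1.46% of all genes tested fell. With no level filter, the lower quartile filter, no block for setting or no trend, 0 of the 10 passed, and with the median over probe sets 2 did. Slc16a1 was at -1.52 log2 in vivo and -1.13 log2 in vitro. Single genes of the list ran in vivo from -1.36 log2 for Ptcra to -0.05 log2 for Rag2. In vitro they ran from -0.86 log2 for Cd8a to 0.17 log2 for Rag2. The part of this shift in the Slc16a1 difference was not tested.

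Between PBS and untreated cells the genes hardly differed. No kept gene of the 32 reached 2-fold: 0 were higher, beside 0.192% of all kept genes, and 0 were lower, beside 0.374%. Their differences ran from -0.32 log2 for Pgam1 to 0.38 log2 for Pfkm, with a median of 0.03 log2. The PBS array is the control of the in vivo comparison and the tested array here, and the ethanol array is used in both culture comparisons, so these comparisons are not independent.

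Genes of the same pathways outside the list gave few further differences. Of 24 other isozymes and branch enzymes, 14 were kept. In vivo 1 of the 14 was at least 2-fold higher, where 2.71% of all kept genes were. It was Slc2a4, the insulin-responsive transporter GLUT4 of muscle and fat, with 6.77 with dexamethasone and 5.63 with PBS. In culture Slc2a4 lay below the level filter, at 4.76 with dexamethasone and 4.84 with ethanol. In vitro 0 of the 14 were at least 2-fold different, where 1.53% of all kept genes were higher and 0.86% lower. In ethanol culture 3 of the 14 were at least 2-fold lower than in untreated cells, where 8.07% of all kept genes were. They were Me1 (-2.95 log2), Gpd1 (-2.48 log2) and Pcx (-1.71 log2). All 3 lay below the level filter of 5.28 on both cultured arrays, at 4.09 to 5.08, and were kept through the other arrays. Their count thus depends partly on the filter. At least 2-fold higher was 1 of the 14, Pck2 (1.06 log2), where 3.1% of all kept genes were. Malic enzyme Me1 and glycerol 3-phosphate dehydrogenase Gpd1 are enzymes of lipid synthesis, and Pcx is pyruvate carboxylase. None of 18 genes of the tricarboxylic acid cycle was at least 2-fold different in any of the 4 comparisons. The same held for the 3 kept genes of the pyruvate dehydrogenase complex and its phosphatases.

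Of 7 other pentose phosphate and ribose phosphate genes 6 were tested and 1 fell, where 1.46% of all genes fell. It was Prps2, which makes phosphoribosyl pyrophosphate for nucleotides. It had 9.23 with dexamethasone and 10.29 with PBS in vivo and 9.83 with dexamethasone and 10.26 with ethanol in culture, with 10.40 untreated, a common difference of -0.74 log2 (SE 0.166, limma adjusted p = 0.0374). The Prps2 call was lost under 6 of 8 other limma settings, with adjusted p from 0.0616 to 1. Of 18 regulators 14 were tested and 1 rose, where 2.34% of all genes rose. It was Mlxip, which encodes the glucose 6-phosphate sensing factor MondoA. Mlxip had 9.62 with dexamethasone and 7.16 with PBS in vivo and 9.60 with dexamethasone and 7.63 with ethanol in culture, with 7.65 untreated, a common rise of 2.21 log2 (SE 0.181, limma adjusted p = 0.000212). The Mlxip call was lost without a level filter (limma adjusted p = 0.711), with the lower quartile filter (adjusted p = 0.164) and without the block for setting (adjusted p = 0.435). Both dexamethasone arrays stood above the other 3. Myc, a known activator of glycolytic genes, was at -1.17 log2 in vivo and -0.41 log2 in vitro and did not pass, and it was at -1.60 log2 in ethanol culture against untreated cells. By size, 1 of the 14 was at least 2-fold lower in vivo, Myc, where 1.48% of all kept genes were. In ethanol culture 2 of the 14 were, Myc and Bnip3 (-1.10 log2), where 8.07% were. Bnip3 was at 0.84 log2 in vivo and 0.61 log2 in vitro with dexamethasone and did not pass. At least 2-fold higher was Mlxip alone, in vivo (2.71% of all kept genes) and in vitro (1.53%).

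The setting separated the responses most for Pdk4, at 3.87 log2 in vivo and -0.40 log2 in vitro. Over the 32 kept genes the in vivo minus in vitro difference ran from -0.77 log2 for Tpi1 to 0.61 log2 for Hk2. Its median was -0.20 log2, beside -0.12 log2 over all kept genes. With 1 array per group this difference has no test.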

How the data were processed

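Transcript levels were measured on 5 Affymetrix arrays, 1 per group. The deposited tables hold log2 values per probe set, made by the authors with RMA per the submitters' processing notes (its version is not given). The deposited series matrix holds the same values as linear intensities, and the largest difference from its log2 was 7.11e-15. No detection calls or scan dates were used.

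Probe sets were named by current symbol, RefSeq accession, unique synonym or the file's symbol, in that order, with a RefSeq table of GRCm38.p6. Of the 39 genes, 33 were found by current symbol, 3 by accession (Gapdh, Pkm, Ldha) and 3 by synonym. Each gene was represented by its probe set of highest mean. Genes with a mean at or above the median, 9882 of 19764, were kept. Differences of log2 levels were described by size, against a threshold of 2-fold. A shared difference in both settings was fitted by limma 3.58.1 (R 4.3.3) with terms for setting and dexamethasone, eBayes and a trend, with Benjamini-Hochberg adjustment over the 9882 genes and a threshold of 0.05. The script was tested on simulated data. Marker lists were summed on the linear scale.

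Members and gene lists were chosen with earlier results of these data known. All 39 genes are accounted for, and all 5 values are given for each gene that differs by at least 2-fold in a comparison or passes limma, and for the gene of highest level in each role. Myc, Ldha and some others are named by role, chosen after their values were seen.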

Additional observations from a re-analysis of the deposited data

Results flagged for a closer look

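Pdk4 differed in opposite directions in the 2 settings, by 3.87 log2 in vivo and -0.40 log2 in vitro, an in vivo minus in vitro difference of 4.27 log2. It was singled out because the signs opposed each other and the responses lay at least 2-fold apart, and with 1 array per group the difference was not tested. Both cultured levels, 2.36 with dexamethasone and 2.77 with ethanol, lay under 2.97, the lower quartile of the values on the arrays.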

How the results depend on the processing

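The limma calls depended on the processing. Of the 32 to 39 listed genes tested by limma, 0 passed without the level filter, 0 with a filter at the lower quartile, 0 without the block for setting and 0 with the median over probe sets. Limma then called 0, 0, 0 and 67 of all genes, with 1313, 1255, 324 and 1057 at an unadjusted p under 0.05. With array medians centred (chosen after seeing the data) or quantile normalization again, 2 passed, Slc16a1 and Ldhb. Limma then called 688 and 736 of all 9882 genes, where the main fit called 375. Without the trend, or without probe sets ending in _x_at or _s_at (chosen after seeing the data), Slc16a1 alone passed. In these 2 settings 126 and 303 of all genes were called. The cause of these changes was not tested; the unadjusted limma p of Slc16a1 itself was 0.00427 without the filter and 4.05e-06 with it. Counts of genes at least 2-fold higher in vivo became 1 without the level filter (2.27% of all genes) or with the lower quartile (2.89%), which admit Pdk4. With the median over probe sets the count was 1 (2.70%), again Pdk4, whose mean then passed the filter. The Pdk4 level of 8.56 on the in vivo dexamethasone array raised that mean, beside 2.36 to 5.01 on the other arrays. This count thus depends partly on the filter. At a 1.5-fold threshold 2 were higher (6.48% of all genes). Counts lower in vivo became 3 at 1.5-fold (7.37% of all genes) and 0 with the median over probe sets (1.35%). Slc16a1 was at -0.83 log2 with that median, and the count lower in vitro was also 0 (0.80%). Against the untreated array, in vitro counts became 1 higher (5.02% of all genes) and 6 lower (8.54%). In ethanol culture the higher count became 4 at 1.5-fold (10.9% of all genes) and 1 with array medians centred (4.28%), and the lower count was 9 at 1.5-fold (14.3%). With the median over probe sets, Pkm was at 0.82 log2 in vivo and Pfkfb3 at -0.81 log2 in ethanol culture. No difference of at least 2-fold changed sign under any of these settings. No paired analysis was possible because the labels give no replicate numbers and each group has 1 array. Without replicates, low levels such as those of Pdk4 in culture limit what can be compared.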

Other observations

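The array carries 3 control probe sets for Gapdh, at its 3′ end, middle and 5′ end, which were not used above. They differed by -0.16, -0.15 and -0.10 log2 between dexamethasone and PBS in vivo, and by 0.07, -0.07 and -0.07 log2 between dexamethasone and ethanol in culture. Between ethanol culture and untreated cells they were at -0.40, -0.43 and -0.44 log2, beside -0.31 log2 for the probe set used.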
